A study of Mus musculus with 16 samples.

Results

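Messenger RNA of spleen CD4 T cells was compared between mice that had carried a transplanted B cell lymphoma for 14 days and mice without tumours. The 2 groups were chosen by their sample titles and make up 9 of the 16 libraries of the series, with 7 others from day 7. The day 14 group held 4 libraries from C57BL/6 mice that had received Eu-Myc lymphoma cells, B cell tumours of mice in which an immunoglobulin heavy chain enhancer drives the Myc oncogene in B cells. The control group held 5 libraries from tumour-free C57BL/6 mice labelled day 0. Both groups were spleen CD4 T cells enriched by removing other cells with magnetic beads, so the lymphoma cells are not the cells that were meant to be sequenced. The labels give no age, no number of tumour cells and no sham transplant for the controls, and the tumour was grafted rather than arising in the mouse, which limits it as a model. All 23479 genes of the deposited count table entered, and 18430 passed the filter on low counts.

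A CD4 T cell reads its surroundings through cytokine receptors that act by way of Janus kinases (JAK) and STAT transcription factors, and through an antigen receptor that acts by way of calcium, calcineurin and MAP kinases. Antigen receptor signals switch on immediate early genes within minutes, and growth of an activated T cell draws on ribosomes, mitochondria, proteasomes and sterol synthesis. Regulators such as the SOCS proteins, the dual-specificity phosphatases and the inhibitory Smad proteins are themselves transcribed in response to the pathways that they restrain.

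The libraries differed between the groups in properties that touch many genes at once. Gene counts were 21610411 to 27340070 per control library and 14731908 to 17067236 per day 14 library. Reads outside gene models made up 51.1 ± 3.65% in controls and 63.2 ± 6.60% at day 14 (SD, n = 5 and 4, exact 2-sided permutation p = 0.0238, adjusted over 4 library measures 0.0238), with 69.8%, 54.4%, 66.3% and 62.3% in day 14 libraries 1 to 4 and 56.7% in control library 2. Day 14 libraries also held more genes at an equal depth of 14731908 counts, 20808 ± 1636 against 17274 ± 1167 (SD, n = 4 and 5, exact permutation adjusted p = 0.0238). They drew more of their counts from genes that span 100 kb or more, 17.1 ± 0.734% against 15.5 ± 0.790% (exact permutation adjusted p = 0.0238). Olfactory and vomeronasal receptor genes, which T cells are not known to use, had a count for 91.5%, 31.9%, 72.2% and 51.0% of 1429 genes in day 14 libraries 1 to 4 and for 10.1% to 35.9% in controls. The 16 markers of CD4 T cells summed to 5195 to 9435 CPM (counts-per-million, scaled by TMM) in controls and to 5763 to 7892 CPM at day 14, and none passed. Of the 16, 14 had a negative log2 change, with a median of -0.24. Control libraries 3 to 5 summed to 8651 to 9435 CPM, above every day 14 library. With these as the only controls 6 markers were called lower and none higher, with a median of -0.44. Y-linked transcripts were abundant in 2 controls (libraries 1 and 2) and in day 14 library 4. Xist was abundant in control libraries 3 to 5 and day 14 libraries 2 and 3, and neither was abundant in day 14 library 1. Control libraries 1 and 2 and day 14 library 4 held the most neutrophil and mitosis transcripts of the 9 libraries. In bulk RNA, fewer cells of a type and less RNA per cell cannot be told apart.

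Across the genome 246 genes were higher at day 14 (1.33% of those tested) and 331 were lower (1.8%), together 3.13%, by edgeR's quasi-likelihood test at an adjusted p below 0.05. The 2 sets differed in abundance and in the size of their changes. The higher genes had a median log2 change of 1.31, 73 of them had a control mean under 1 CPM, and 33 were at 0 counts in every control library. The lower genes had a median log2 change of -0.61, and 326 of the 331 had a control mean of at least 10 CPM. Among the 2193 genes that averaged 100 CPM or more, 125 were lower and 26 higher, while among the 5300 genes under 1 CPM, 61 were higher and none was lower, with 2 lower at an unadjusted p below 0.05. Of these 5300 genes 4971 had a positive change. A gene could pass the filter on low counts through the day 14 libraries alone, so the counts under 1 CPM are no test of direction. All day 14 libraries lay above all control libraries for 965 genes (5.24%) and below them for 525 (2.85%). These shares, with 1.33% called higher and 1.8% called lower, are the background for every list counted below. The median log2 change of all tested genes was 0.12, and 0.32 when libraries were scaled by their totals alone. It was 0.02 when the filter asked for at least 1 CPM in 4 or more libraries.

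**Figure D1:**
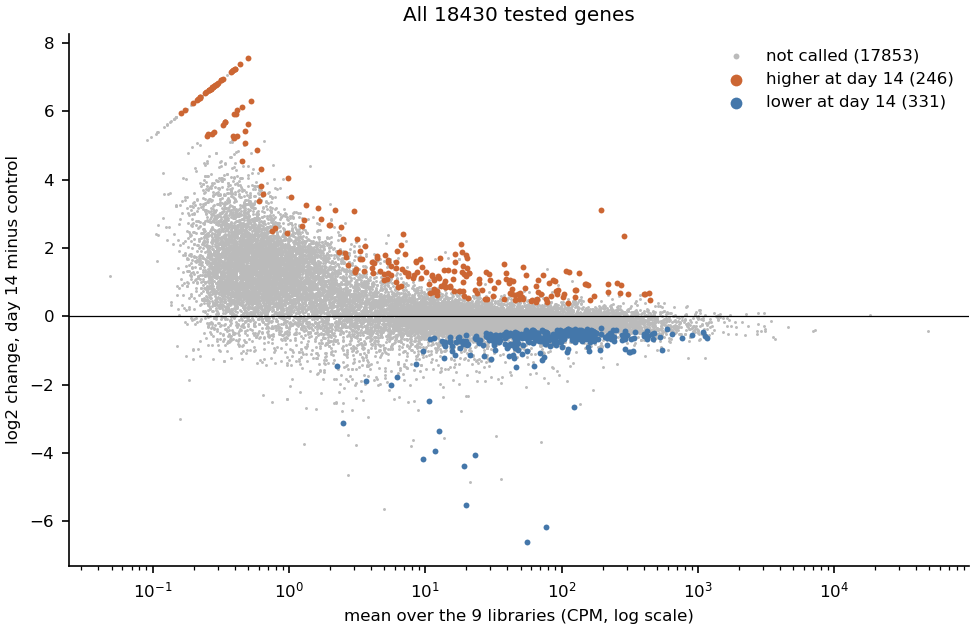
Log2 change from control to day 14 (vertical axis) against the mean over the 9 libraries in CPM (horizontal log axis) for 18430 genes. Points are genes, with the 246 called higher in orange and the 331 called lower in blue. Called higher genes are spread over all abundances, and called lower genes are almost all above 10 CPM.

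How many genes passed depended on single libraries. Without any 1 of the 9 libraries in turn, 42 to 487 genes were higher and 18 to 999 lower. The fewest higher genes remained without day 14 library 3 and the fewest lower without control library 3 (64 and 18 genes), while leaving out day 14 library 2 gave 459 and 999. Still called whichever library was left out were 31 of the higher genes, among them Il2rb, Socs3, Jak3, Tnfrsf4, Slamf6, Map3k5, Adam19, Apobec3, Pcgf2, Neb, Ttn and Dst, and 8 of the lower genes, among them Ppp3ca, Ppp1cb, Dusp6, Tomm22, H3f3a and Cetn3. With only control libraries 3 to 5 as controls 456 genes were higher and 486 lower, of which 138 and 207 were among those above. With the share of reads outside gene models as a covariate 1 gene passed, Neb, and 603 genes were higher and 783 lower at an unadjusted p below 0.05. All 577 called genes kept their direction in both of these fits, which reuse the libraries that the genes were called from, so this is no separate test. Of 104 list medians 22 changed sign with control libraries 3 to 5 alone and 37 with the covariate.

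Cytokine receptor signalling carried several of the higher genes. Of 40 interleukin receptor genes 4 were higher and none lower, and of 23 JAK, STAT and SOCS genes 4 were higher and none lower, against 1.33% of all genes. The list medians were 0.37 and 0.12, beside 0.12 for all genes, so the bulk of the second list did not move with its called members. Its median was -0.04 with only control libraries 3 to 5. Markers of T cell subsets moved with these genes. All 13 regulatory T cell markers had a positive change and 4 were higher (Foxp3, Ikzf2, Itgae and Klrg1), with a summed level of 785 to 1038 CPM in controls and 1148 to 1811 CPM at day 14. All 14 follicular helper markers had a positive change and 5 were higher (Cxcr5, Pdcd1, Slamf6, Maf and Tnfsf8), with sums of 321 to 466 and 585 to 942 CPM. Of 14 naive T cell markers 11 had a negative change and 3 were lower (Ccr7, Dapl1 and Ly6c1), with sums of 6047 to 10748 and 5560 to 8534 CPM. None of the 4 regulatory and 3 naive calls and 2 of the 5 follicular helper calls held whichever library was left out. The part of these subsets in the receptor genes described here and in the TNF receptor and SLAM genes was not tested.

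Il2rb encodes the beta chain that the interleukin 2 and interleukin 15 receptors share, and it lies on chromosome 15 from 78479256 to 78495271 (GRCm38). Its level was 104, 67.0, 119, 111 and 137 CPM in control libraries 1 to 5 and 227, 173, 224 and 199.9 CPM in day 14 libraries 1 to 4. Every day 14 library lay above every control, and control library 2 was the lowest. Changes are log2 values, given from here on with their standard error and edgeR's adjusted p, and Il2rb changed by 0.94 ± 0.16 (adjusted p = 0.00812). Il10ra, the ligand-binding chain of the interleukin 10 receptor, was at 21.1, 29.4, 27.1, 34.3 and 31.9 CPM in controls and 71.3, 38.1, 61.8 and 54.8 CPM at day 14. Il10ra changed by 0.97 ± 0.19 (adjusted p = 0.0153). Il12rb1, which the receptors of interleukin 12 and interleukin 23 share, was at 8.69, 4.25, 9.96, 7.67 and 10.7 CPM in controls and 15.2, 17.6, 18.6 and 20.6 CPM at day 14. Il12rb1 changed by 1.12 ± 0.23 (adjusted p = 0.0207). The groups did not overlap for either gene, and day 14 library 2 held the least Il10ra of its group. Il20rb, a chain of the interleukin 20 receptor named after its values were seen, was higher at a low level, 3.51 ± 0.728 in controls and 8.14 ± 3.01 CPM at day 14 (1.21 ± 0.26, adjusted p = 0.0227). With the covariate for reads outside gene models the log2 changes of Il10ra and Il20rb shrank to 0.47 and 0.66, while those of Il2rb and Il12rb1 were 0.96 and 1.35, none of them past the threshold. Without day 14 library 1 or 3 the calls of Il10ra, Il20rb and Il12rb1 were lost, and that of Il12rb1 also without day 14 library 4 or control library 4 (adjusted p up to 0.0673, 0.108 and 0.0815).

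Jak3 encodes the kinase that is bound to the common gamma chain, a partner of the Il2rb chain and not part of the other receptors above. It was at 189, 137, 140.4, 169.8 and 248 CPM in controls and 302, 424, 376 and 291 CPM at day 14, with no overlap and the highest level in day 14 library 2. Jak3 changed by 0.98 ± 0.17 (adjusted p = 0.0102). Socs3, whose protein blocks the kinases of receptors that signal through STAT3, was at 107, 96.3, 67.6, 60.3 and 82.7 CPM in controls and 213, 269, 181 and 129 CPM at day 14. Socs3 changed by 1.26 ± 0.18 (adjusted p = 0.00405). The group means of Socs3 differed by more than those of Jak3 on the log2 scale, and again the highest level was in day 14 library 2, the one with the smallest share of reads outside gene models. Cish, a related inhibitor named after its values were seen, was at 41.9, 31.6, 39.5, 23.9 and 34.3 CPM in controls and 54.7, 49.8, 66.8 and 45.0 CPM at day 14. Cish changed by 0.66 ± 0.17 (adjusted p = 0.046). Pias3, an inhibitor of STAT3, was at 10.2 ± 1.79 in controls and 18.7 ± 2.34 CPM at day 14 (0.87 ± 0.22, adjusted p = 0.0437). For both, day 14 lay above control in every library, but the calls were lost without day 14 library 1, 3 or 4 or control library 1, 3 or 4 (adjusted p up to 0.185 and 0.114), for Cish also without control library 5.

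The starts of Socs3 and Cish are shown because both genes are known STAT targets and hold the palindromic letters TTCNNNGAA to which STAT proteins bind. The sequences come from RefSeq (GRCm38.p6), read 5′ to 3′ on the gene's strand with the matching letters in capitals. For Socs3 these are the 250 bases before the start, chr11:117969367-117969616 on the minus strand, with the match beginning at base -154. For Cish they are 30 bases around the start, chr9:107296654-107296683 on the plus strand, with matches that begin at bases 1 and 12 of the transcript.
Socs3: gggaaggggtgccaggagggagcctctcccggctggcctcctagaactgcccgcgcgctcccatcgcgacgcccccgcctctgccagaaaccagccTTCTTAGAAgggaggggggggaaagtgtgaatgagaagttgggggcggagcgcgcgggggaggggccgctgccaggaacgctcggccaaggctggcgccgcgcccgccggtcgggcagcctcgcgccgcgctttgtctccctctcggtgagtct
Cish: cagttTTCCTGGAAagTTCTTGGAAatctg
In windows of 300 bases (250 before and 50 after a start) this motif was found on at least 1 strand in 8.30% of 32851 windows. Counted per gene, it was found for 1138 of 13360 tested genes with a window (8.52%) and for 2 of 16 JAK, STAT and SOCS genes. It was found for 18 of 171 genes called higher (10.5%) and for 17 of 248 called lower (6.85%). These shares describe letters and not binding.

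Receptors of cell contact changed in both directions. Of 34 TNF receptor and ligand genes 3 were higher and 2 lower, with a median of -0.02 that was 0.16 with library totals. Tnfrsf4 (OX40, a costimulatory receptor) was at 68.0, 43.4, 47.6, 32.2 and 35.8 CPM in controls and 98.6, 76.7, 107 and 98.1 CPM at day 14. Tnfrsf4 changed by 1.07 ± 0.17 (adjusted p = 0.00812), without overlap, and its call held whichever library was left out (adjusted p up to 0.0446). Tnfrsf1a, the main receptor of TNF, moved the other way, at 60.5, 69.8, 56.6, 58.4 and 58.4 CPM in controls and 29.5, 41.4, 35.9 and 48.4 CPM at day 14. Tnfrsf1a changed by -0.65 ± 0.16 (adjusted p = 0.0417). Its call was lost without day 14 library 1 or 3 or control library 1, 3 or 4 (adjusted p up to 0.175). Of 10 SLAM family genes, receptors by which lymphocytes touch each other, 2 were higher. Slamf1 was at 32.1, 24.5, 43.3, 31.9 and 31.1 CPM in controls and 58.9, 50.5, 70.7 and 46.8 CPM at day 14 (0.80 ± 0.18, adjusted p = 0.028), and Slamf6 was at 101, 69.8, 113, 111 and 137 CPM in controls and 189, 173, 212 and 239 CPM at day 14. Slamf6 changed by 0.93 ± 0.15 (adjusted p = 0.00535). The call of Slamf6 held without any 1 library, and that of Slamf1 was lost without day 14 library 1 or 3 or control library 1 or 4 (adjusted p up to 0.124).

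Secreted factors and chemotactic receptors were few among the calls. Of 35 cytokine genes Csf1, the macrophage growth factor, was higher, at 10.04, 10.6, 5.90, 4.11 and 8.03 CPM in controls and 10.8, 16.5, 19.3 and 19.6 CPM at day 14. Csf1 changed by 1.10 ± 0.27 (adjusted p = 0.0398). Day 14 library 1 was close to the highest controls for Csf1, and the call was lost without day 14 library 3 or 4 or control library 1 or 3 (adjusted p up to 0.136). Of 40 chemokine and chemokine receptor genes 2 were higher, Cxcr3 and Cxcr5, and 2 lower, Ccr7 and Xcl1. Xcl1, a chemokine that attracts cross-presenting dendritic cells, was at 9.44, 11.3, 13.5, 3.31 and 4.81 CPM in controls and 1.21, 3.28, 2.54 and 1.33 CPM at day 14. Xcl1 changed by -2.02 ± 0.45 (adjusted p = 0.0263). Control libraries 4 and 5 were close to day 14 library 2, and the call was lost without day 14 library 1, 3 or 4 or control library 1 or 3 (adjusted p up to 0.103).

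Of 26 NF-kappaB genes 2 passed, both higher, while the list median was 0.00. Icam1, an adhesion molecule and a classical NF-kappaB target, was at 24.9, 21.3, 17.9, 26.6 and 28.3 CPM in controls and 29.97, 55.7, 43.7 and 38.9 CPM at day 14. Icam1 changed by 0.82 ± 0.17 (adjusted p = 0.0221). Nfkbiz, an atypical IkappaB protein of the nucleus, was at 255, 226, 297, 224 and 229 CPM in controls and 417, 388, 409.8 and 335 CPM at day 14. Nfkbiz changed by 0.65 ± 0.14 (adjusted p = 0.0239). Neither gene's groups overlapped, and the day 14 library closest to the controls was library 1 for Icam1 and library 4 for Nfkbiz. The call of Icam1 was lost without day 14 library 3 or control library 3, and that of Nfkbiz without day 14 library 1 or 3 or control library 4 (adjusted p up to 0.086 and 0.0912).

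**Figure D2:**
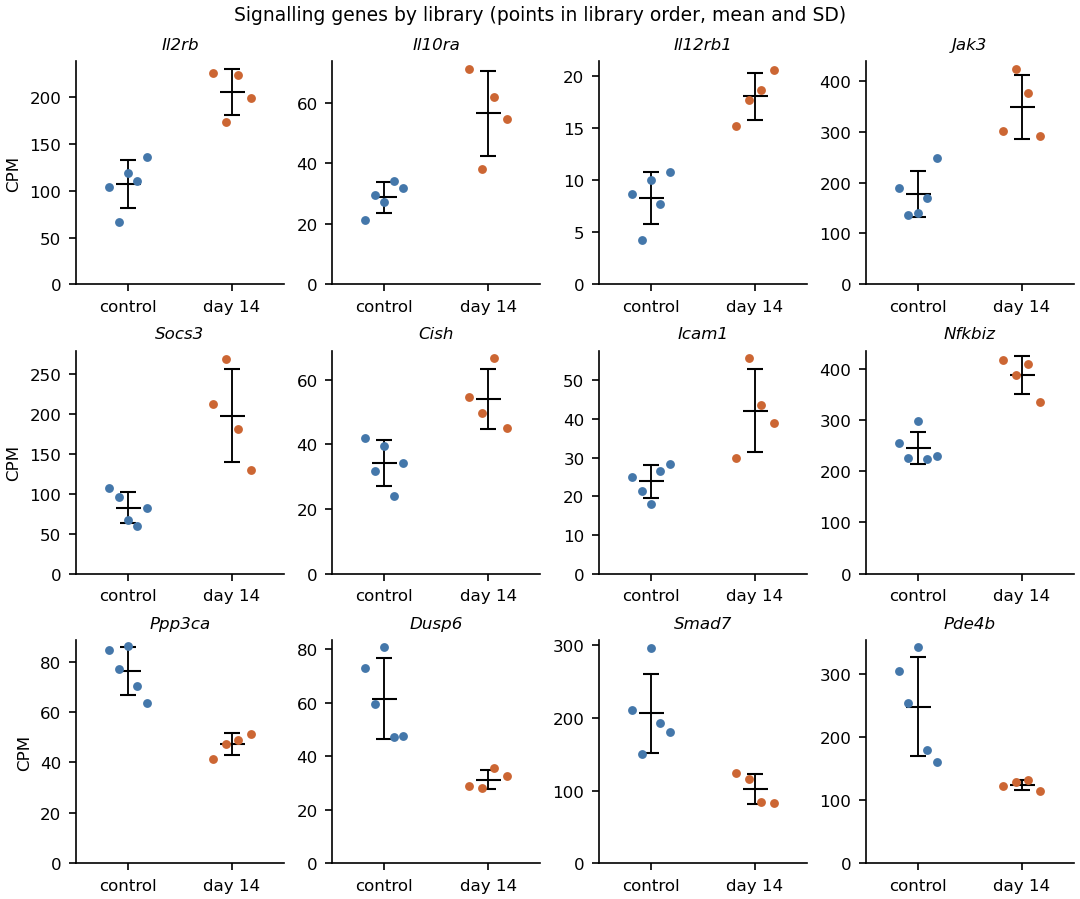
CPM (vertical axis, from 0) of 12 signalling genes in 5 control (blue) and 4 day 14 (orange) libraries. Points stand in library order from left to right, and bars give the mean and SD. The groups do not overlap in any of the 12 panels, with Il2rb, Il10ra, Il12rb1, Jak3, Socs3, Cish, Icam1 and Nfkbiz higher and Ppp3ca, Dusp6, Smad7 and Pde4b lower at day 14.

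Subunits of 3 phosphatases were among the lower genes, though no list of phosphatase subunits was drawn up. Of 73 tested genes with a Ppp symbol 8 were lower and none higher. In that family 31 had a positive and 42 a negative change (median -0.09). Of 34 calcium channel and store-operated entry genes, which act upstream of calcineurin, none passed by edgeR, 20 had a positive change (median 0.13), and 9 were higher and 2 lower at an unadjusted p below 0.05. Ppp3ca encodes the catalytic subunit of calcineurin, the phosphatase that releases NFAT factors to the nucleus, and lies on chromosome 3 from 136670124 to 136937727 (GRCm38). It was at 84.6, 77.3, 86.3, 70.5 and 63.7 CPM in controls and 41.4, 47.4, 48.9 and 51.5 CPM at day 14 (-0.69 ± 0.11, adjusted p = 0.00473), and its call held without any 1 library. Ppp3r1, the regulatory subunit of the same enzyme, was named after its values were seen, at 84.0, 87.9, 87.8, 92.5 and 85.6 CPM in controls and 62.9, 62.0, 67.5 and 60.1 CPM at day 14. Ppp3r1 changed by -0.47 ± 0.09 (adjusted p = 0.014). The spread within each group was small for Ppp3r1, and no library of the groups overlapped. Its call was lost without day 14 library 1 or 4 or control library 3 or 4 (adjusted p up to 0.109). The catalytic subunits Ppp1cb and Ppp2ca of protein phosphatases 1 and 2A, also named after their values were seen, were lower as well, at 246 ± 26.6 in controls and 162 ± 23.0 CPM at day 14 (-0.61 ± 0.11, adjusted p = 0.0102) and 168 ± 12.98 in controls and 121 ± 10.2 CPM at day 14 (-0.47 ± 0.09, adjusted p = 0.0153). The call of Ppp2ca was lost without day 14 library 1 or 3 or control library 3 (adjusted p up to 0.0816).

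Dusp6, the phosphatase that switches off ERK kinases, was the one called gene of 23 dual-specificity phosphatases. It was at 73.0, 59.3, 80.6, 47.2 and 47.4 CPM in controls and 28.8, 28.2, 35.4 and 32.5 CPM at day 14. Dusp6 changed by -0.98 ± 0.17 (adjusted p = 0.00972). Control libraries 4 and 5 held the least Dusp6 of their group and still lay above every day 14 library. Of 44 MAP kinase cascade genes 1 was higher and 1 lower. Map3k5, the stress kinase ASK1, was at 84.7, 80.9, 76.3, 78.6 and 91.6 CPM in controls and 120.2, 131, 133 and 136 CPM at day 14. Map3k5 changed by 0.66 ± 0.11 (adjusted p = 0.00815). Map4k4 was at 661 ± 53.3 in controls and 515 ± 55.2 CPM at day 14 (-0.36 ± 0.10, adjusted p = 0.0496). The call of Map4k4 held only without day 14 library 2 or control library 5 (adjusted p up to 0.286 otherwise).

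Among TGF-beta and Smad genes 2 regulators were lower while the list as a whole was mixed, and phosphodiesterases were mixed too. Of 26 TGF-beta and Smad genes 12 had a positive and 14 a negative change, with a median of -0.07. In this list 2 passed, Smad7 and Skil, which both restrain Smad signalling and are both known to be induced by it. Smad7 was at 210.3, 151, 296, 193 and 181 CPM in controls and 124, 116, 84.9 and 83.4 CPM at day 14. Smad7 changed by -1.02 ± 0.19 (adjusted p = 0.011). Skil was at 209.6, 170.3, 215, 129.8 and 121 CPM in controls and 99.3, 116, 103 and 95.6 CPM at day 14 (-0.71 ± 0.16, adjusted p = 0.0273), where control libraries 4 and 5 were close to day 14. The call of Smad7 was lost without day 14 library 3 or control library 3, and that of Skil without day 14 library 1, 3 or 4 or control library 1 or 3 (adjusted p up to 0.0606 and 0.0971). Of 24 phosphodiesterases, which end cyclic nucleotide signals, Pde4b was lower and Pde1b higher, while 19 had a positive change and the median was 0.88, or -0.31 with the covariate for reads outside gene models. Pde4b, which degrades cyclic AMP, was at 305, 254, 341, 178 and 161 CPM in controls and 121, 129, 131 and 114 CPM at day 14. Pde4b changed by -0.9996 ± 0.21 (adjusted p = 0.0221). Pde1b, which calcium and calmodulin activate, was at 23.6, 25.7, 25.5, 24.4 and 27.5 CPM in controls and 37.8, 33.9, 42.0 and 39.8 CPM at day 14. Pde1b changed by 0.60 ± 0.13 (adjusted p = 0.0227). The 4 day 14 libraries agreed closely for Pde4b while the controls spread widely, and both calls were lost without day 14 library 1, 3 or 4 or control library 3 (adjusted p up to 0.0797 and 0.0963). Rap1b, a small GTPase of integrin activation, was at 384 ± 45.6 in controls and 243 ± 33.0 CPM at day 14 (-0.66 ± 0.11, adjusted p = 0.00817, lost without day 14 library 1 at 0.052). Rgcc, a regulator of the cell cycle, was at 87.5 ± 33.0 in controls and 31.6 ± 6.24 CPM at day 14 (-1.47 ± 0.29, adjusted p = 0.0175, lost without day 14 library 1 or 4 or control library 3 at up to 0.058).

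The immediate early genes had the lowest list median outside the lists of other cell types. Of 26 tested members 23 had a negative log2 change, the median was -0.81, 4 were lower (all genes 1.8%) and none higher, and in 7 all day 14 libraries lay below all controls (all genes 2.85%). The median was -0.60 with library totals, -0.66 with the share of reads outside gene models as a covariate, and -0.75 with control libraries 3 to 5 alone. The list index, the mean log2(CPM + 1) of its members, was 7.83, 7.60 and 7.83 in control libraries 1 to 3, 6.89 and 6.73 in control libraries 4 and 5, and 6.59 to 6.75 at day 14. Thus 3 controls stood at a high level and 2 near the day 14 level.

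Ier2 and Ier5, nuclear proteins of the early growth response, kept apart from that split. Ier2 was at 98.4, 89.6, 94.9, 94.8 and 96.7 CPM in controls and 61.8, 60.4, 41.3 and 57.9 CPM at day 14. Ier2 changed by -0.78 ± 0.14 (adjusted p = 0.0102). Ier5 was at 120.3, 99.1, 135, 139 and 124 CPM in controls and 71.7, 102, 74.2 and 70.3 CPM at day 14 (-0.63 ± 0.14, adjusted p = 0.0253), with day 14 library 2 inside the control range. Btg2, an antiproliferative gene that p53 and immediate early signals induce, was at 277, 235, 357, 268 and 231 CPM in controls and 135, 194, 170.4 and 189 CPM at day 14. Btg2 changed by -0.67 ± 0.16 (adjusted p = 0.0315). Atf3, a stress-induced transcription factor and the remaining called member, chosen after seeing its values, was at 32.1, 52.7, 17.4, 3.56 and 0.215 CPM in controls and 1.73, 1.76, 1.97 and 2.72 CPM at day 14 (-3.37 ± 0.88, adjusted p = 0.0456), and its control mean rested on control libraries 1 to 3. Without control libraries 1 and 2 the adjusted p of Atf3 was 0.145 and those of Ier2, Ier5 and Btg2 were 0.0132, 0.013 and 0.0255. Leaving out single libraries ended the call of Ier2 only for control library 3 (adjusted p = 0.0551), that of Ier5 for day 14 library 1, 3 or 4 or control library 3 or 4 (up to 0.142), and that of Btg2 for day 14 library 1, 3 or 4 or control library 1, 3 or 4 (up to 0.158). The call of Atf3 was lost without any 1 of the day 14 libraries or of control libraries 1 to 3 (up to 0.147).

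The promoter of Btg2 is shown because it holds the cyclic AMP response element TGACGTCA, through which CREB family factors switch on many immediate early genes. It covers the 250 bases before the RefSeq start, chr1:134079156-134079405 on the minus strand (GRCm38.p6), with the element in capitals beginning at base -166.
Btg2: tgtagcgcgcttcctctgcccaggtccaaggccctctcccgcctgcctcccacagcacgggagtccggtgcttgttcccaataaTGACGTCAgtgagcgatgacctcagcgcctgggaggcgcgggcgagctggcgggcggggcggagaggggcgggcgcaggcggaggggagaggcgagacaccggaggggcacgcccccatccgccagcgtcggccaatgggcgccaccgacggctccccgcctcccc
The element reads the same on both strands. It was found in 1.79% of all 32851 windows. Counted per gene, it was found in 408 of 13360 tested genes with a window (3.05%) and in 2 of 21 immediate early genes. It was found in 19 of 248 genes called lower (7.66%) and in 4 of 171 genes called higher (2.34%).

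In 6 lists of protein synthesis and mitochondrial energy production most genes had small negative changes, and few of them passed the test. Of 82 cytosolic ribosomal protein genes 79 had a negative log2 change, the median was -0.41 and 8 were lower (Rpl9, Rpl22, Rpl7a, Rpl35a, Rpl37, Rplp0, Rps24 and Rps27a). Of 78 nuclear-encoded genes of oxidative phosphorylation 77 had a negative change, the median was -0.40 and 5 were lower, all but 1 of them subunits of complex I. Of 77 mitochondrial ribosomal protein genes 69 had a negative change (median -0.29) and 1 was lower, of 63 translation factors 56 (median -0.28) and 3, of 24 mitochondrial import genes 23 (median -0.33) and 2, and of 20 genes of the tricarboxylic acid cycle all 20 (median -0.28) and none. No gene of these 6 lists was called higher. Most members were abundant, for instance 77 of the 82 ribosomal and 73 of the 78 oxidative phosphorylation genes at 10 CPM or more. Negative changes were common at that level. Of 6360 genes averaging 10 to 100 CPM 4331 had one (median -0.14), and of 2193 at 100 CPM or more 1718 (median -0.20). Counts of negative changes in other lists of abundant genes stand beside the same values. The 6 medians lay between -0.22 and -0.08 with library totals, where the median of all genes was 0.32. With the share of reads outside gene models as a covariate they lay between -0.13 and -0.03, on both sides of the median of all genes (-0.07). Related lists were mixed. Of 39 aminoacyl tRNA synthetase genes, which charge transfer RNA, 16 had a positive and 23 a negative change (median -0.08) and none passed by edgeR, with 1 higher and 9 lower at an unadjusted p below 0.05, and of 25 glycolysis genes 11 had a positive change.

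Rpl9, a protein of the large ribosomal subunit, was at 676, 536, 712, 621 and 549.7 CPM in controls and 344.8, 533, 351 and 385 CPM at day 14. Rpl9 changed by -0.62 ± 0.14 (adjusted p = 0.0287). Day 14 library 2 stood just below the lowest control while the other day 14 libraries were well below. Rps24 of the small subunit was at 1375, 1023, 1576, 1548 and 1471 CPM in controls and 815, 1214, 796 and 769 CPM at day 14 (-0.64 ± 0.16, adjusted p = 0.039), with day 14 library 2 inside the control range. Ribosomal protein genes have many near-identical pseudogenes, and reads placed at more than 1 position, which the authors' counting set apart, made up 9.44 ± 0.591% in controls and 7.42 ± 0.614% at day 14. Mrps5, of the mitochondrial ribosome, was at 73.5 ± 9.86 in controls and 49.3 ± 5.96 CPM at day 14 (-0.58 ± 0.14, adjusted p = 0.0349), and Eif3h, a subunit of the initiation factor eIF3, at 354 ± 22.03 in controls and 242 ± 43.7 CPM at day 14 (-0.55 ± 0.13, adjusted p = 0.0311).

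Ndufb2, an accessory subunit of complex I, was at 28.7, 32.8, 29.0, 28.3 and 32.3 CPM in controls and 14.2, 22.4, 17.8 and 19.9 CPM at day 14. Ndufb2 changed by -0.70 ± 0.14 (adjusted p = 0.0186). Cox6a1, a subunit of cytochrome c oxidase, was at 207, 242, 208, 185 and 198 CPM in controls and 84.0, 172, 118 and 132 CPM at day 14. Cox6a1 changed by -0.71 ± 0.16 (adjusted p = 0.0257). For both, day 14 library 1 was the lowest and library 2 the highest of its group, and neither overlapped the controls. Tomm22, a receptor of the outer membrane import channel (chromosome 15, 79670861 to 79673400, GRCm38), was at 96.6, 106, 97.1, 91.8 and 93.8 CPM in controls and 47.7, 75.2, 54.8 and 62.5 CPM at day 14. Tomm22 changed by -0.69 ± 0.12 (adjusted p = 0.00991). Tomm7, which helps assemble the same channel, was at 51.2, 52.5, 62.6, 55.3 and 55.6 CPM in controls and 26.6, 42.5, 29.4 and 33.3 CPM at day 14. Tomm7 changed by -0.75 ± 0.15 (adjusted p = 0.0182). The call of Tomm22 held without any 1 library, and those of Tomm7 and Cox6a1 were lost without day 14 library 1, 3 or 4 or control library 3 (adjusted p up to 0.0903 and 0.0984). Of 47 mitochondrial carriers 2 went the other way, the glutamate carrier Slc25a22 at 24.1 ± 4.28 in controls and 34.2 ± 2.31 CPM at day 14 (0.50 ± 0.13, adjusted p = 0.047) and Slc25a30 at 23.1 ± 2.73 in controls and 33.1 ± 2.27 CPM at day 14 (0.52 ± 0.13, adjusted p = 0.0417), and the first of them was called only without control library 5 among the single libraries left out.

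Genes of protein folding and turnover also had mostly negative changes. Of 50 proteasome genes 46 had a negative change, the median was -0.34 and 3 were lower. Psmb6, a catalytic subunit of the core, was at 93.4, 121, 94.1, 91.6 and 82.4 CPM in controls and 46.9, 80.7, 61.4 and 66.9 CPM at day 14 (-0.59 ± 0.15, adjusted p = 0.0402), and Psmd4, a ubiquitin receptor of the regulatory particle, was at 108 ± 8.65 in controls and 82.0 ± 6.39 CPM at day 14 (-0.40 ± 0.09, adjusted p = 0.032). Of 14 chaperonin and prefoldin genes, whose products fold actin and tubulin, 13 had a negative change (median -0.38) and 3 were lower, among them Cct5 at 178 ± 15.1 in controls and 129.8 ± 26.4 CPM at day 14 (-0.46 ± 0.12, adjusted p = 0.0441) and Pfdn1 at 27.6 ± 3.44 in controls and 18.6 ± 2.76 CPM at day 14 (-0.57 ± 0.15, adjusted p = 0.0437). Of 78 heat shock and DnaJ genes 4 were lower (median -0.22), among them Hspa5, the chaperone BiP of the endoplasmic reticulum, at 633, 485, 631, 432 and 343 CPM in controls and 261, 422, 289 and 309 CPM at day 14. Hspa5 changed by -0.66 ± 0.18 (adjusted p = 0.0486). Its groups overlapped, since control library 5 was below day 14 library 2. Every call in the lists of ribosomal proteins, translation factors, oxidative phosphorylation, the proteasome, chaperonins and heat shock proteins was lost without at least 1 of the 9 libraries.

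Within day 14 the oxidative phosphorylation index ran opposite to the share of reads outside gene models, and among controls the lists differed in this. The index of the oxidative phosphorylation list was 5.61 to 5.84 in controls and 5.01, 5.57, 5.13 and 5.41 in day 14 libraries 1 to 4, and that of cytosolic ribosomal proteins was 8.29 to 8.61 and 8.002, 8.47, 7.94 and 8.01. Day 14 library 2, with the smallest share of reads outside gene models in its group, came closest to the controls in both, and libraries 1 and 3, with the largest shares, held the lowest values in both. Control library 2, with the largest share of its group, had the lowest ribosomal index among controls but the highest index of all 9 libraries for oxidative phosphorylation (5.84), mitochondrial ribosomal proteins (4.71), the proteasome (5.85) and chaperonins (6.56). Of genes that averaged 10 CPM or more, 70 of the 874 with under 2 kb of exons were lower (8.01%, median -0.33), against 31 of the 1771 with 8 kb or more (1.75%, median -0.06). The parts of gene length and of reads outside gene models in these lists were not tested.

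**Figure D3:**
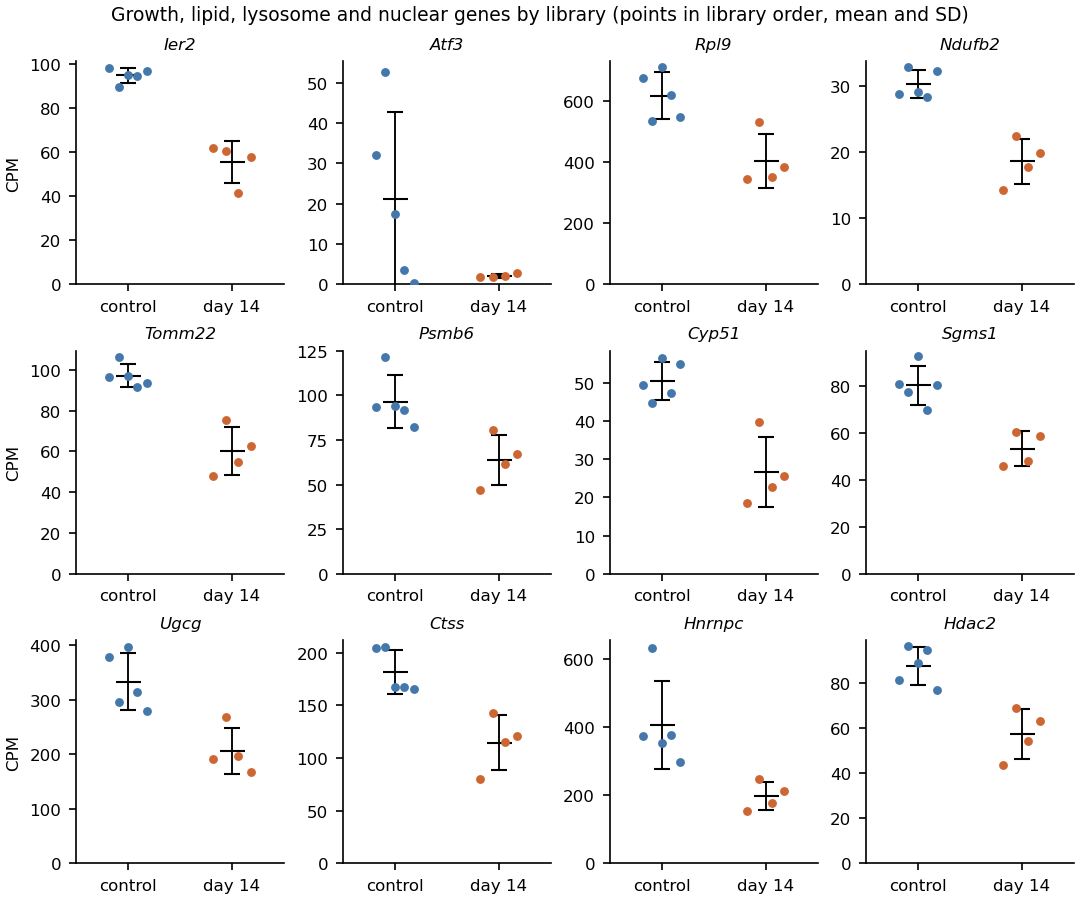
CPM (vertical axis, from 0) of 12 genes that were lower at day 14, in 5 control (blue) and 4 day 14 (orange) libraries, with points in library order and bars for the mean and SD. Day 14 library 2, the second orange point, is the highest of its group in all panels but Ier2 and Atf3, and the Atf3 controls spread from near 0 to 52.7 CPM.

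Lower lipid genes came from cholesterol, sphingolipid and fatty acid synthesis. Of 26 genes of cholesterol synthesis and uptake 23 had a negative change and the median was -0.49. In this list 3 were lower (all genes 1.8%) and none higher, and in 5 the day 14 libraries lay below all controls (all genes 2.85%). The median was -0.30 with library totals and -0.21 with the covariate for reads outside gene models. Cyp51, which removes a methyl group from lanosterol, was at 49.6, 44.7, 56.5, 47.3 and 54.9 CPM in controls and 18.6, 39.7, 22.6 and 25.5 CPM at day 14. Cyp51 changed by -0.93 ± 0.19 (adjusted p = 0.0182). Day 14 libraries 1 and 3 held the least Cyp51 of their group and library 2 the most, without overlap with the controls. Fdft1, the squalene synthase, was at 24.3, 19.3, 17.3, 19.0 and 23.5 CPM in controls and 12.9, 12.3, 14.2 and 15.4 CPM at day 14. Fdft1 changed by -0.59 ± 0.16 (adjusted p = 0.0459). The calls differed in what they rested on. That of Fdft1 held only without control library 2, and that of Cyp51 was lost without day 14 library 1, 3 or 4 or control library 3 (adjusted p up to 0.191 and 0.086).

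Of 26 sphingolipid genes 3 were lower and none higher, with a median of -0.28. Ugcg, which makes glucosylceramide, was at 379, 296, 398, 314 and 279 CPM in controls and 191, 268, 197 and 168 CPM at day 14. Ugcg changed by -0.69 ± 0.14 (adjusted p = 0.0211). Sgms1, which makes sphingomyelin, was at 80.8, 77.6, 92.8, 69.9 and 80.6 CPM in controls and 45.8, 60.5, 48.0 and 58.8 CPM at day 14 (-0.59 ± 0.12, adjusted p = 0.0221), and neither gene's groups overlapped. Sgpp1, which removes the phosphate of sphingosine 1-phosphate, was at 129.6 ± 10.9 in controls and 88.3 ± 19.8 CPM at day 14 (-0.55 ± 0.14, adjusted p = 0.0424), and Acss2, which makes acetyl-CoA from acetate and was the 1 called member of 20 fatty acid synthesis genes, at 52.2 ± 10.4 in controls and 35.7 ± 3.48 CPM at day 14 (-0.55 ± 0.14, adjusted p = 0.0436). The call of Ugcg was lost without day 14 library 1, 3 or 4 or control library 3 or 4, and that of Sgms1 without day 14 library 1 or 3 or control library 3 (adjusted p up to 0.101 and 0.102). That of Sgpp1 was lost in 6 and that of Acss2 in 7 of the 9 fits that left out 1 library (adjusted p up to 0.184 and 0.231).

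The promoter of Cyp51 is shown because genes of sterol synthesis are switched on by SREBP together with the CCAAT-binding factor NF-Y. It covers the 250 bases before the RefSeq start, chr5:4104698-4104947 on the minus strand (GRCm38.p6), with the CCAAT letters in capitals beginning at base -29.
Cyp51: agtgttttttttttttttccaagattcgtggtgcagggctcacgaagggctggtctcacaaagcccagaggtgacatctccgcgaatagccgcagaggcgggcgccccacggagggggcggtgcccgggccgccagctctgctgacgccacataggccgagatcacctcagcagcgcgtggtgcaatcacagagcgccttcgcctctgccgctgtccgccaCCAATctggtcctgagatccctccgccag
CCAAT was found on at least 1 strand in 15 of 17 cholesterol genes with a window (88.2%) and in 37.4% of all 32851 windows. Counted per gene, it was found in 5602 of 13360 tested genes with a window (41.9%). The share was about the same in genes called lower, 102 of 248 (41.1%). The sterol response element, searched on both strands, was found in 0 of the 17 cholesterol genes, in 0 of the 248 genes called lower and in 30 of all windows.

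Lysosomes and membrane traffic showed lower genes with a few exceptions. Of 30 lysosomal genes 4 were lower and none higher, with a median of -0.20 that was -0.00 with library totals. Ctss, the protease cathepsin S, was at 204, 206, 168, 167 and 166 CPM in controls and 79.6, 142, 116 and 120.4 CPM at day 14. Ctss changed by -0.67 ± 0.14 (adjusted p = 0.0194). Npc2, which carries cholesterol out of the lysosome, was at 269 ± 20.7 in controls and 183 ± 36.8 CPM at day 14 (-0.55 ± 0.12, adjusted p = 0.0273). Lipa, the acid lipase, was at 72.2 ± 13.4 in controls and 48.7 ± 5.74 CPM at day 14 (-0.57 ± 0.13, adjusted p = 0.0316), and Lgmn, the protease legumain named after its values were seen, at 18.3 ± 1.75 in controls and 11.2 ± 3.17 CPM at day 14 (-0.72 ± 0.18, adjusted p = 0.0441). Macrophages and dendritic cells also express these genes, and 18 macrophage and monocyte markers, of which none passed, summed to 40.5 to 1162 CPM in controls and 61.6 to 447 CPM at day 14. Of 18 dendritic cell and MHC class II markers 16 had a negative change and 4 were lower, with a median of -1.001 and sums of 166 to 732 CPM in controls and 101 to 199 CPM at day 14. Their part in the result was not tested. The call of Ctss was lost without day 14 library 3 (adjusted p = 0.0797), and those of Npc2, Lipa and Lgmn without day 14 library 1, 3 or 4 or control library 1, 3 or 4 (up to 0.177).

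Of 22 genes of the vacuolar proton pump, which acidifies these compartments, 2 were lower and 1 higher (median -0.31). Atp6v1d of its soluble part was at 163 ± 28.5 in controls and 104 ± 19.4 CPM at day 14 (-0.66 ± 0.14, adjusted p = 0.0221) and Atp6v1e1 of the same part at 58.0 ± 9.86 in controls and 40.6 ± 1.67 CPM at day 14 (-0.51 ± 0.12, adjusted p = 0.0328). Atp6v0d2, a subunit of the membrane part known from osteoclasts, rose from a low level, 1.497 ± 0.446 in controls and 4.28 ± 1.47 CPM at day 14 (1.51 ± 0.40, adjusted p = 0.0487). Of 34 autophagy genes 2 were lower, Atg3, which attaches the LC3 proteins to lipid, at 133, 147, 166, 149.7 and 121 CPM in controls and 76.3, 119, 88.8 and 90.6 CPM at day 14 (-0.61 ± 0.12, adjusted p = 0.0186), and Gabarap, one of the proteins so attached, at 116 ± 11.5 in controls and 79.8 ± 11.3 CPM at day 14 (-0.54 ± 0.14, adjusted p = 0.0484). Bnip3l, a receptor for the removal of mitochondria and the 1 called gene of 23 hypoxia targets, was at 148, 139, 178, 132 and 117 CPM in controls and 72.3, 101, 90.8 and 87.9 CPM at day 14 (-0.70 ± 0.13, adjusted p = 0.0114), without overlap. Rab35 at 73.0 ± 6.14 in controls and 53.5 ± 3.93 CPM at day 14, the sorting nexin Snx3 at 88.6 ± 7.21 in controls and 55.2 ± 11.7 CPM at day 14 and the ESCRT subunit Chmp4b at 157 ± 11.7 in controls and 118 ± 12.9 CPM at day 14 were lower too (adjusted p = 0.024, 0.0312 and 0.0417). In the lists of 97 Rab genes and 71 sorting genes 1 gene each was higher, 3 and 2 were lower, and the medians of -0.04 and -0.12 were 0.15 and 0.08 with library totals. Among the genes of this paragraph, leaving out day 14 library 1 ended every call and leaving out day 14 library 3 every call but that of Bnip3l, with adjusted p up to 0.216.

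Among genes of RNA and chromatin the calls were sparse. Of 18 hnRNP genes 17 had a negative change (median -0.33) and Hnrnpc, which packages nascent transcripts, was lower. It was at 374, 630.0, 352, 377 and 297 CPM in controls and 152, 248, 176 and 211 CPM at day 14 (-1.04 ± 0.19, adjusted p = 0.0102), control library 2 stood far above the rest, and the call was lost without day 14 library 3 (adjusted p = 0.0532). Of 31 snRNP and Lsm genes 1 was lower (Lsm14a, 189.7 ± 16.9 in controls and 141 ± 15.5 CPM at day 14, -0.43 ± 0.09, adjusted p = 0.0221) and of 52 RNA polymerase II genes 2 were lower, Taf10 at 48.8 ± 5.78 in controls and 33.1 ± 3.67 CPM at day 14 (-0.56 ± 0.13, adjusted p = 0.0275) and Gtf2b at 83.2 ± 16.8 in controls and 51.9 ± 9.03 CPM at day 14 (-0.68 ± 0.16, adjusted p = 0.0347). Of 29 histone deacetylases and acetyltransferases 3 were lower and none higher, while the median of -0.08 was 0.12 with library totals. Hdac2 was at 81.0, 96.2, 88.5, 94.6 and 76.6 CPM in controls and 43.5, 68.9, 54.2 and 63.0 CPM at day 14. Hdac2 changed by -0.61 ± 0.13 (adjusted p = 0.0221). Hdac5 was at 52.8 ± 5.06 in controls and 34.5 ± 3.75 CPM at day 14 (-0.61 ± 0.12, adjusted p = 0.0169), and Sirt1 at 44.7 ± 3.36 in controls and 32.7 ± 2.54 CPM at day 14 (-0.45 ± 0.11, adjusted p = 0.0391). None of the 3 deacetylases overlapped between the groups, and each call was lost without day 14 library 3, control library 3 or control library 4, that of Hdac2 also without day 14 library 1, that of Hdac5 without day 14 library 4, and that of Sirt1 without day 14 library 1 or 4 or control library 1 (adjusted p up to 0.158). None of 54 replication-dependent histone genes passed, with 13 positive and 41 negative changes and a median of -0.21 that was 0.63 with control libraries 3 to 5 alone.

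The Polycomb group genes Cbx7, Phc3 and Pcgf2 were singled out after their values were seen for being higher, and the remaining members of the group were not counted. Of 46 histone methyltransferase genes 1 was higher, Prdm1, and none lower. Cbx7, which reads the Polycomb mark on histone H3, was at 173, 135, 163, 176 and 212 CPM in controls and 310.4, 244.8, 272 and 298 CPM at day 14. Cbx7 changed by 0.71 ± 0.12 (adjusted p = 0.00817). Phc3, a scaffold of Polycomb repressive complex 1, was at 295, 273, 340.4, 357 and 331 CPM in controls and 549.7, 411, 568 and 491 CPM at day 14. Phc3 changed by 0.66 ± 0.13 (adjusted p = 0.0147). Pcgf2, a RING-binding subunit of that complex, was at 5.81, 8.27, 4.54, 3.16 and 4.68 CPM in controls and 12.2, 12.6, 15.7 and 17.7 CPM at day 14 (1.46 ± 0.26, adjusted p = 0.0102), and its call held without any 1 library, whereas those of Cbx7 and Phc3 were lost without day 14 library 1 (adjusted p up to 0.0548 and 0.0767) and that of Phc3 also without day 14 library 3. With the covariate for reads outside gene models the log2 changes of Cbx7, Phc3 and Pcgf2 were 0.80, 0.39 and 1.34. Kcnq1ot1, a noncoding RNA that silences its imprinted neighbours, was at 272, 340.3, 263, 383 and 384 CPM in controls and 399, 459, 551 and 651 CPM at day 14 (0.65 ± 0.17, adjusted p = 0.0444), and since it lies antisense within Kcnq1 and the strand of counting is not known, its reads cannot be told from those of Kcnq1. Its call held only without day 14 library 2 or control library 2 or 5 (adjusted p up to 0.14 otherwise). H3f3a, which encodes the replacement histone H3.3 and was also named after its values were seen, was at 173, 177, 145, 135 and 132 CPM in controls and 65.2, 110.2, 94.1 and 94.7 CPM at day 14 (-0.74 ± 0.14, adjusted p = 0.0131), a value made uncertain by its near-identical copies. Of 351 genes with a Zfp symbol, 5 were higher and 3 lower, beside 1.33% and 1.8% of all genes.

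Neb and Ttn, which encode very long proteins, had the 2 largest rises among called genes that averaged 10 CPM or more. Of 44 giant cytoskeletal and muscle genes 4 were higher (Neb, Ttn, Dst and Cdh23) and none lower. The list median was 0.35, and -0.00 with the covariate for reads outside gene models, and it was -0.01 over the 25 members that averaged 10 CPM or more. Neb, which encodes the thin filament protein nebulin of muscle, was at 50.4, 48.1, 37.8, 38.4 and 46.5 CPM in controls and 472, 160.2, 423 and 467 CPM at day 14. Neb changed by 3.10 ± 0.24 (adjusted p = 1.98e-06). Ttn, which encodes titin of the sarcomere, was at 120.0, 95.2, 89.0, 114 and 87.6 CPM in controls and 369, 435, 655 and 598 CPM at day 14. Ttn changed by 2.35 ± 0.29 (adjusted p = 0.00174). Day 14 library 2 held the least Neb of its group and day 14 library 1 the least Ttn, and all were above all controls. Dst, a linker of the cytoskeleton, was at 68.8, 60.8, 62.6, 69.1 and 59.1 CPM in controls and 132, 131, 202 and 181 CPM at day 14. Dst changed by 1.33 ± 0.23 (adjusted p = 0.00972). These genes were called whichever library was left out, and with the 9 libraries fitted alone Neb, Ttn, Dst and Adam19 were the only calls. Cdh23, a cadherin of hair cells of the ear, was at 2.58, 4.07, 2.27, 1.504 and 3.31 CPM in controls and 13.3, 5.47, 16.2 and 11.5 CPM at day 14 (2.08 ± 0.51, adjusted p = 0.0375), and its log2 change was 0.41 with the covariate for reads outside gene models. Its call was lost without day 14 library 1, 3 or 4 or control library 1, 3 or 4 (adjusted p up to 0.131).

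Genes with a long span showed a positive median as a class only when weakly expressed genes were counted. Of all 552 tested genes that span 300 kb or more 460 had a positive change, 14 were higher and 1 lower, with a median of 1.19. Of genes averaging 10 CPM or more, 6 of the 128 that span 300 kb or more were higher (4.69%) and 1 was lower, with a median of -0.02, beside 18 higher and 92 lower of 1862 under 10 kb with a median of -0.26. Of 44 myosin genes 3 were higher and 2 lower. Myo3b was at 4.43 ± 1.75 in controls and 13.6 ± 4.08 CPM at day 14 (1.62 ± 0.35, adjusted p = 0.0237) and Myo1h at 5.22 ± 1.07 in controls and 12.9 ± 4.30 CPM at day 14 (1.31 ± 0.29, adjusted p = 0.026), whereas Myl6, the light chain of nonmuscle myosin, was at 336, 306, 352, 389 and 373 CPM in controls and 195, 299, 197 and 189.9 CPM at day 14. Myl6 changed by -0.67 ± 0.14 (adjusted p = 0.0189). Of 25 genes of actin and the Arp2/3 complex 24 had a negative change (median -0.33, and -0.12 with library totals) and 2 were lower, Arpc3 at 198 ± 30.1 in controls and 125 ± 33.2 CPM at day 14 (-0.66 ± 0.17, adjusted p = 0.0456) and the capping protein Capzb at 475 ± 28.7 in controls and 354 ± 61.7 CPM at day 14 (-0.42 ± 0.11, adjusted p = 0.0456). Among motors, the kinesin Kif5c was higher at 6.19 ± 1.19 in controls and 13.4 ± 3.51 CPM at day 14 (1.11 ± 0.26, adjusted p = 0.0307) and the dynactin subunit Dctn1 lower at 158 ± 9.30 in controls and 114 ± 12.7 CPM at day 14 (-0.47 ± 0.11, adjusted p = 0.0342). Dock6, an exchange factor of small GTPases, was at 5.28, 5.56, 5.26, 2.26 and 4.85 CPM in controls and 15.2, 8.26, 15.99 and 20.1 CPM at day 14. Dock6 changed by 1.68 ± 0.29 (adjusted p = 0.00972). Of these genes Dock6 alone was called without any 1 library, and for the others leaving out day 14 library 3 ended the call (adjusted p up to 0.244 over all libraries left out).

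Matrix and adhesion genes had the 3 highest list medians, and with channels and carriers they held few calls. The medians were 1.56 for 22 laminin and basement membrane genes, 1.54 for 44 collagens, 1.41 for 104 cadherins and protocadherins, 1.26 for 87 potassium channels and 0.70 for 279 solute carriers outside mitochondria, with 3, 1, 3, 3 and 5 genes higher and none lower. With the share of reads outside gene models as a covariate the same medians were 0.03, -0.26, 0.12, -0.26 and -0.09. Most members were barely detected, for instance 66 of the 104 cadherins and 51 of the 87 potassium channels with a mean under 1 CPM. The index of the potassium channel list was 1.85, 1.10, 1.57 and 1.42 in day 14 libraries 1 to 4, 1.31 in control library 2, and between 0.78 and 0.93 in the remaining controls. The 5 libraries with the highest index, in the order day 14 library 1, 3 and 4, control library 2 and day 14 library 2, were in that order also the 5 with the largest share of reads outside gene models and the largest summed CPM of olfactory and vomeronasal receptor genes. Their part in these lists was not tested.

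**Figure D4:**
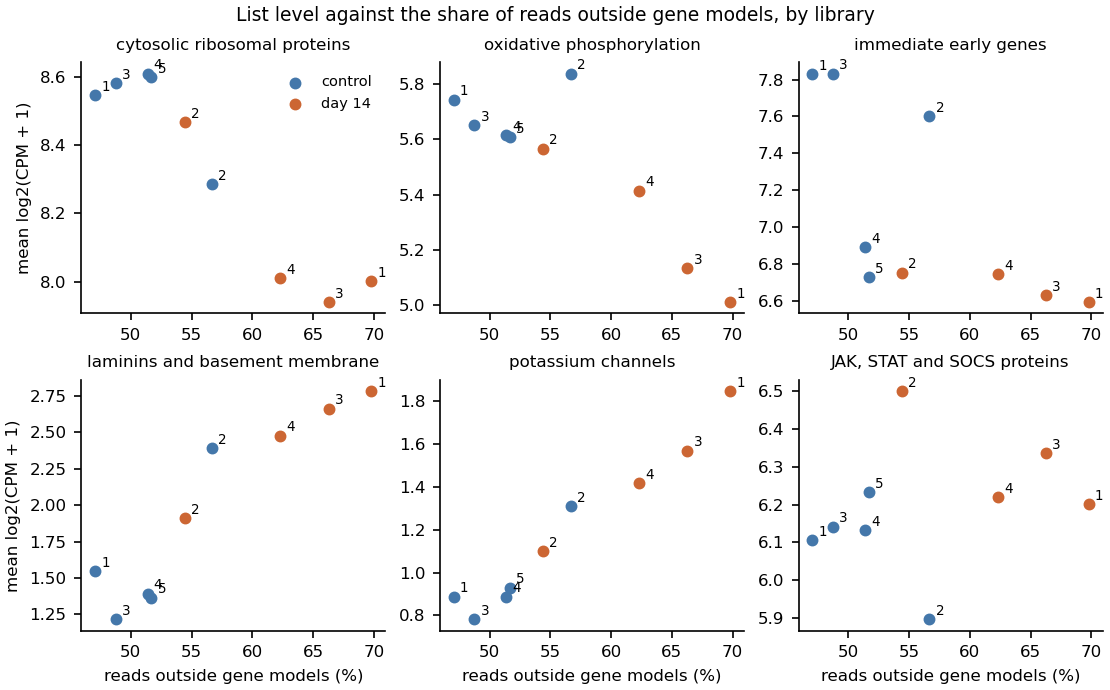
Mean log2(CPM + 1) of the members of 6 gene lists (vertical axis) against the percentage of reads outside gene models (horizontal axis) in 5 control (blue) and 4 day 14 (orange) libraries, numbered by library. Laminin and potassium channel lists rise with the share across both groups, ribosomal and oxidative phosphorylation lists are lowest at the highest shares, and the JAK, STAT and SOCS list has its highest value in day 14 library 2 at 54.4%.

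The genes given next are called members of these and related lists, and the better expressed members as a whole rose little or not at all. Over members averaging 10 CPM or more the medians were -0.78 for 4 laminin and basement membrane genes and -0.05 for 1 collagen. They were 0.425 for 3 cadherins, 0.20 for 5 potassium channels and 0.035 for 85 solute carriers. Adam19, a membrane protease on chromosome 11 from 46055992 to 46147343 (GRCm38), was the one called gene of 76 ADAM and MMP proteases. It was at 60.6, 64.5, 62.8, 54.5 and 62.3 CPM in controls and 144, 107, 127 and 117 CPM at day 14. Adam19 changed by 1.02 ± 0.15 (adjusted p = 0.00405). Lamc1, the common laminin gamma chain, was at 18.3, 16.5, 11.1, 9.32 and 9.84 CPM in controls and 27.6, 25.997, 41.0 and 30.3 CPM at day 14 (1.26 ± 0.24, adjusted p = 0.0131), with day 14 above control throughout. Celsr1, a seven-pass cadherin of planar polarity, was at 136, 113, 133, 146 and 159 CPM in controls and 209.8, 189, 192 and 173 CPM at day 14. Celsr1 changed by 0.48 ± 0.10 (adjusted p = 0.0259). Nid2, Tnxb and Col4a3 rose from control means of 1.74 ± 1.05, 0.589 ± 0.649 and 0.730 ± 0.266 CPM, and their day 14 means were 5.60 ± 0.339, 3.76 ± 2.29 and 4.53 ± 2.52 CPM, with adjusted p = 0.0486, 0.0442 and 0.0456. Plxnb1, a semaphorin receptor, was at 3.93 ± 2.16 in controls and 10.3 ± 2.11 CPM at day 14 (1.39 ± 0.35, adjusted p = 0.0433). Of the transporters and channels, the potassium channel Kcnq5 was at 10.4 ± 1.37 in controls and 18.8 ± 3.73 CPM at day 14, the organic solute carrier Slc22a15 at 6.13 ± 2.09 in controls and 15.1 ± 4.19 CPM at day 14, the bicarbonate carrier Slc4a8 at 13.6 ± 2.81 in controls and 22.9 ± 2.77 CPM at day 14 and the drug and leukotriene exporter Abcc1 at 51.2 ± 3.30 in controls and 70.1 ± 10.1 CPM at day 14 (adjusted p = 0.0275, 0.0221, 0.0275 and 0.0275). The call of Adam19 held without any 1 library (adjusted p up to 0.0234), and all the other calls of this paragraph were lost without day 14 library 3 (up to 0.172 over all libraries left out).

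**Figure D5:**
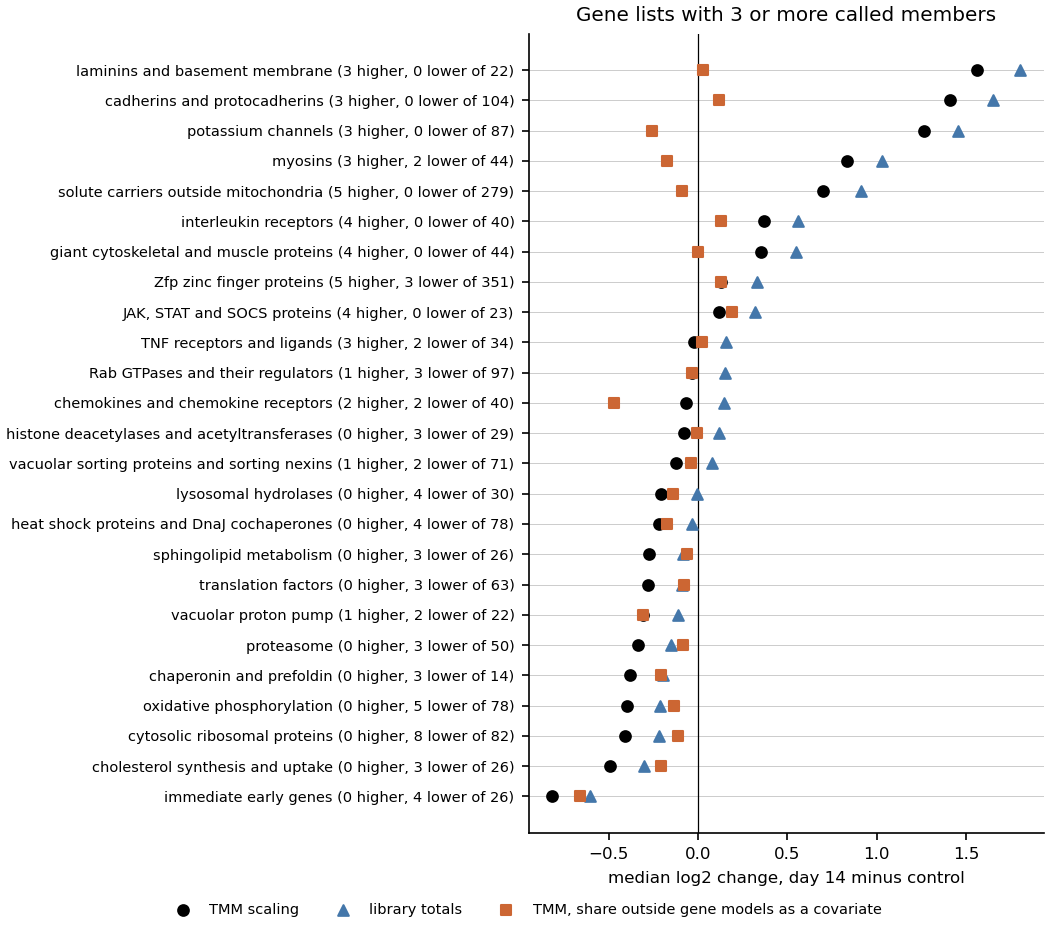
Median log2 change from control to day 14 (horizontal axis) of the gene lists with 3 or more called members (vertical axis, with their counts), with TMM scaling (black), library totals (blue) and the share of reads outside gene models as a covariate (orange). T cell subset, neutrophil, dendritic cell and 1 other list are left out. The orange medians of the lists with black medians above 0.6 lie near or below 0, and the immediate early list stays below -0.6 in all settings.

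Several pathways had no called gene with all libraries in the fit. Of 32 type I interferon response genes none passed, with 8 positive and 24 negative changes and a median of -0.20, and 1 lay above and none below all controls at day 14. At an unadjusted p below 0.05, 1 was higher and 4 lower by edgeR. This rested on day 14 library 2, whose index was 5.42 beside 4.38, 4.61 and 4.39 in the other day 14 libraries and 4.78 to 5.41 in controls. Without it 10 of the 32 were called lower and none higher, with a median of -0.45. Neither 25 interferon gamma and MHC class I genes (median -0.14), 25 glycolysis genes (-0.04), 27 genes of nucleotide synthesis (-0.24), 33 DNA repair genes (-0.16), 28 genes of phosphoinositide 3-kinase and mTOR (-0.05) nor 20 clock genes (-0.10) held a call. The 26 mitosis genes held none either, at a median of -0.13. With control libraries 3 to 5 alone 6 of them were called higher and none lower, with a median of 1.27. The mitosis index was 5.35 in control library 1, 6.42 in control library 2, between 3.41 and 3.93 in control libraries 3 to 5 and between 3.86 and 5.69 at day 14. In all, 25 of 104 lists had no called member.

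Markers of other cells were called lower in the lists of dendritic cells, B cells and neutrophils. Of 18 genes of dendritic cells and MHC class II 4 were lower, and in 3 day 14 lay below all controls. H2-Aa, a chain of MHC class II, was at 32.8, 20.03, 14.98, 13.1 and 1.85 CPM in controls and 1.04, 0.729, 0.935 and 0.968 CPM at day 14. H2-Aa changed by -4.17 ± 0.98 (adjusted p = 0.0323). H2-Eb1, another chain, was at 34.1, 27.4, 14.9, 20.8 and 3.14 CPM in controls and 2.42, 0.486, 0.987 and 1.27 CPM at day 14. H2-Eb1 changed by -3.95 ± 0.90 (adjusted p = 0.0295). Control library 5 was close to day 14 for both. The calls of H2-Aa, H2-Eb1 and the B cell gene Cd79a were lost without day 14 library 1, 3 or 4 or control library 1, 3 or 4 (adjusted p up to 0.114). Of 17 B cell and lymphoma markers 1 was lower, Cd79a of the B cell receptor, at 15.7, 7.82, 6.97, 10.98 and 3.95 CPM in controls and 1.04, 3.34, 3.58 and 2.60 CPM at day 14. Cd79a changed by -1.78 ± 0.40 (adjusted p = 0.0275). The 17 summed to 32.3 to 132 CPM in controls and 30.7 to 64.2 CPM at day 14. Faim3, an older symbol of the IgM receptor gene Fcmr, which B cells express strongly, was at 27.0, 11.8, 15.4, 25.3 and 4.12 CPM in controls and 2.19, 3.89, 3.53 and 2.30 CPM at day 14 (-2.49 ± 0.45, adjusted p = 0.0102), and its call held whichever library was left out. Myc did not pass, at 180.2, 135, 153, 191 and 177 CPM in controls and 162, 200.4, 139.9 and 265 CPM at day 14 (0.20 ± 0.19, adjusted p = 0.525). The 15 neutrophil markers summed to 901 and 2675 CPM in control libraries 1 and 2, to 22.5 to 59.3 CPM in the other controls and to 26.4, 66.1, 42.1 and 1746 CPM at day 14. Of these, 3 were lower, among them S100a8, whose adjusted p without control libraries 1 and 2 was 0.479. Plbd1, a phospholipase of myeloid granules, was at 37.5, 99.7, 14.1, 11.9 and 3.61 CPM in controls and 1.44, 0.547, 1.66 and 2.72 CPM at day 14 (-4.38 ± 1.09, adjusted p = 0.0415). Plbd1 was high with the neutrophil markers in control libraries 1 and 2 but not in day 14 library 4. It did not pass without control libraries 1 and 2 (adjusted p = 0.0961). Prdm1, listed with plasma cells and histone methyltransferases and also expressed by activated T cells, was higher at 10.99 ± 2.42 in controls and 20.2 ± 6.14 CPM at day 14 (0.88 ± 0.23, adjusted p = 0.0442), and its call held only without day 14 library 2 or control library 2 (adjusted p up to 0.166 otherwise). None of 2 CD8 T cell, 10 natural killer, 18 macrophage, 12 erythroid and platelet and 15 stromal markers passed.

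Further genes with small p-values belonged to none of the lists. Apobec3, a cytidine deaminase that restricts retroviruses, was at 168, 162, 107, 146 and 189.6 CPM in controls and 259, 275.5, 292 and 372 CPM at day 14. Apobec3 changed by 0.95 ± 0.14 (adjusted p = 0.00405). Pear1, a receptor best known from platelets, was at 29.4, 24.8, 24.8, 27.7 and 24.5 CPM in controls and 46.3, 41.1, 62.5 and 73.3 CPM at day 14 (1.09 ± 0.16, adjusted p = 0.00405), and Gprin3 at 17.8, 19.3, 18.7, 21.8 and 22.6 CPM in controls and 33.5, 38.3, 49.5 and 45.4 CPM at day 14. Gprin3 changed by 1.06 ± 0.15 (adjusted p = 0.00405). All 3 were called whichever library was left out (adjusted p up to 0.026). Synpo, an actin-binding protein, was at 8.66 ± 2.36 in controls and 26.2 ± 5.30 CPM at day 14, Mdfic, an inhibitor of MyoD family factors, at 17.0 ± 4.25 in controls and 41.6 ± 8.87 CPM at day 14, and Ttc39b, a regulator of sterol metabolism, at 97.1 ± 11.2 in controls and 166 ± 16.01 CPM at day 14 (adjusted p = 0.00455, 0.00455 and 0.00528). Angptl2, a secreted angiopoietin-like protein, was at 8.45 ± 4.15 in controls and 31.1 ± 14.9 CPM at day 14 (1.88 ± 0.42, adjusted p = 0.0275). Ston1, an endocytic adaptor, was at 7.37 ± 2.34 in controls and 31.9 ± 22.4 CPM at day 14 (2.12 ± 0.40, adjusted p = 0.0131). The call of Angptl2 was lost without day 14 library 3 or 4 or control library 3, and that of Ston1 without day 14 library 1 (adjusted p up to 0.0891 and 0.0563). Among the lower genes, Cetn3, a centrin of the centrosome, was at 53.7, 64.7, 45.7, 53.6 and 50.9 CPM in controls and 25.1, 37.0, 25.2 and 32.3 CPM at day 14 (-0.85 ± 0.13, adjusted p = 0.00535), Ostf1 at 113 ± 9.61 in controls and 75.4 ± 5.16 CPM at day 14 (-0.59 ± 0.10, adjusted p = 0.00812), and the acylphosphatase Acyp1 at 18.3 ± 3.18 in controls and 7.82 ± 3.38 CPM at day 14 (-1.22 ± 0.27, adjusted p = 0.0267). The call of Cetn3 held throughout, that of Ostf1 was lost without day 14 library 1 or control library 3, and that of Acyp1 without day 14 library 3 or 4 or control library 1, 3 or 4 (adjusted p up to 0.0622 and 0.0641). Genes were also grouped by the letters of their symbols, which need not mean related genes. Groups of at least 10 tested genes were ranked by the share called, with no test. The largest shares called higher were in Pdcd (2 of 11), Fkbp (2 of 14) and Myo (3 of 24), beside 1.33% of all genes. Each of these groups also held 1 lower gene, and 9 of the 11 Pdcd genes had a negative change. The largest shares called lower were in Ndufb (2 of 10), Hdac (2 of 11), and Anxa and Ppm (2 of 12 each), beside 1.8%. None of these groups held a higher gene, and their medians were -0.54, -0.01, 0.08 and 0.04.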

How the data were processed

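RNA-seq was measured in spleen CD4 T cells of C57BL/6 mice, and 5 control and 4 day 14 libraries were compared. The authors deposited 1 table of raw counts, whole reads per gene, for 23479 genes and 16 libraries. Per the labels' protocols, cells were enriched by immunomagnetic negative selection, a Macherey-Nagel kit gave the RNA, and libraries were made from 100 ng of RNA with a NuGEN kit. Per the submitters' processing notes, bcl2fastq 2.20.0.422, cutadapt 1.8.1 and HTSeq 0.6.1 were used with mm10. The aligner, annotation, read layout and strand setting are not given in the sources used here. The 5 closing lines of HTSeq, which name no gene, were left out of library sizes and tests and used for the shares of reads outside gene models (47.1% to 69.8% of the reads in the table) and at more than 1 position.

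Counts were scaled by TMM, filtered with filterByExpr by group and fitted over all 16 libraries with edgeR 4.0.16 in R 4.3.3 (glmQLFit and glmQLFTest, day 14 minus control, Benjamini-Hochberg adjustment over 18430 genes, threshold 0.05). The series' design text counts mice in the same numbers as the libraries, so p-values were taken to measure the spread between mice. Each standard error was obtained by dividing a log2 change by the root of its F statistic. Library measures were compared by an exact 2-sided permutation test of the difference in means, whose smallest p with 5 against 4 is 0.00794. On simulated counts for 17087 genes the fit recovered 54% of 2-fold and 80% of 4-fold changes, with 5 false calls. The simulation gave the groups no difference in library properties such as reads outside gene models. The 5 false calls therefore do not measure errors that such a difference could bring. Alternatives used limma 3.58.1, DESeq2 1.42.0, other scalings, filters and covariates, fewer libraries and a replicate block. Named genes were the 12 highest and 12 lowest changes of called genes with at least 5 CPM and no overlap, the 10 smallest p-values in each direction, up to 3 called genes per list, and a panel of 15 that checks libraries. Not all of them are described. Other genes are said to be named after their values were seen. The comparison, its 104 gene lists and these rules were chosen with earlier results of these data known. Gene positions, spans and exon lengths came from GENCODE M21 (GRCm38), matched by symbol for 98.2% of genes, and promoter windows from RefSeq (GRCm38.p6).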

Additional observations from a re-analysis of the deposited data

Results flagged for a closer look

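A library stood far from the others of its group for 13 of 260 combinations of group and gene or library measure, by Dixon's test, and chance alone flags about 1 in 20 groups. Day 14 library 2 was the one set apart in 5 of them. It held the most Ier5 (102 CPM), Rps24 (1214 CPM) and Myl6 (299 CPM) and the least Neb (160 CPM) and Myo3b (7.59 CPM) of its group, in each case the value nearest to the controls. Day 14 library 4 held the most Slc25a30 (36.5 CPM). Control library 2 was set apart in 4, with the least Npc2 (233 CPM) and the most Hnrnpc (630 CPM), Tnxb (1.72 CPM) and S100a8 (549 CPM). Control library 3 held the most Il20rb (4.78 CPM), control library 4 the least Dock6 (2.26 CPM) and control library 5 the least Capzb (424 CPM).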

How the results depend on the processing

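The 577 called genes kept their direction in each of the 20 alternatives wherever they had a value, whereas their number did not hold. The alternatives reuse libraries that the genes were called from, so the kept direction is no separate test. Against 246 higher and 331 lower genes (42.6% of calls higher), library totals gave 699 and 100 (87.5%), DESeq2 852 and 699 (54.9%), limma-voom 538 and 465 (53.6%), RLE size factors 289 and 250 (53.6%), no filter 171 and 210, control libraries 3 to 5 alone 456 and 486, and the 9 libraries fitted alone 4 and 0, where 1267 and 1574 passed at an unadjusted p below 0.05. With the share of reads outside gene models as a covariate 1 was higher and 0 lower by edgeR. Leaving out 1 library gave 42 to 487 higher and 18 to 999 lower genes. Without one, reads outside gene models differed by 9.887 to 15.01 percentage points, reads at more than 1 position by -2.1976 to -1.7711, counts from genes of 100 kb or more by 1.2966 to 1.8829, and genes detected by 2994.3 to 4256. With control libraries 3 to 5 alone these were 12.59, -2.0272, 1.0355 and 3982.8 (exact permutation adjusted p = 0.0762, 0.0762, 0.0857 and 0.0762). Mki67 (-0.36, adjusted p = 0.749) turned to 0.25 with limma-voom, 0.62 with Y-linked transcripts as a covariate, 1.66 with control libraries 3 to 5 alone, and 0.06 and 0.64 without day 14 library 1 or control library 2, and Myc turned from 0.20 to -0.0053 without day 14 library 4. Over single libraries left out the Mki67 log2 change ranged from -0.7557 to 0.64 and the Myc log2 change from -0.0053 to 0.3207. The causes were not tested. Of 104 list medians 34 changed sign with library totals, 37 with the covariate and 22 with control libraries 3 to 5 alone. The replicate block gave 25 and 21 calls. Same-numbered control and day 14 libraries did not deviate together (correlations -0.21, -0.31, -0.05 and -0.13, none best with its own number). Whether a shared number also means a shared batch was not tested. Fewer counts at day 14 limit what can be said of genes under 1 CPM.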
